A study of Mus musculus with 12 samples.

Results

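A group of 10 survival genes, which set whether a cell lives or dies by apoptosis, was followed in bone marrow-derived macrophages (BMDMs): Bcl2, Bcl2a1a, Bcl2l1, Mcl1, Bcl2l11, Bbc3, Birc2, Birc3, Xiap and Cflar. They were found by name in the deposited count table, and 10 of 10 were present among 43453 genes. For each gene the transcript with the highest total was taken, and levels are given as CPM, each library's counts scaled to a common size with TMM factors. The table holds 12 libraries in 4 column groups of 3. Without LPS they are headed LPS- tlr4f/f or LPS- tlr4f/f-lysM-cre, and with LPS they are headed LPS+ tlr4f/f or LPS+ tlr4f/f-lysM-cre. All mice were C57BL/6 and carried loxP-flanked tlr4 on both alleles, and the tlr4f/f-lysM-cre mice also carried Cre under the lysozyme M promoter, which is active in the myeloid lineage. Marrow cells of every group were grown for 7 days in 50 ng/mL of M-CSF, and the LPS+ groups then received LPS at 1 µg/mL, and RNA was taken 6 h later. The age of the marrow donors is not given in the sources used here. Nothing in the labels says whether the libraries of a group came from separate mice or cultures, so p-values measure the spread between libraries, which may be technical. Over all genes the libraries held between 33577440 and 56445989 counts, with a median of 45331248.

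Apoptosis through mitochondria is held back by the anti-apoptotic BCL2 family (Bcl2, Bcl2a1a, Bcl2l1, Mcl1), whose proteins bind and neutralise BH3-only proteins such as BIM (Bcl2l11) and PUMA (Bbc3). Downstream, XIAP blocks active caspases. The cellular inhibitors of apoptosis cIAP1 (Birc2) and cIAP2 (Birc3) are ubiquitin ligases of the TNF receptor complex, where c-FLIP (Cflar) keeps caspase-8 from starting the death signal. LPS acts through TLR4 and NF-kB in macrophages, and Bcl2a1a, Birc3 and Cflar are textbook NF-kB targets.

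The headings of the columns were checked with the targeted gene first. The CPM of Tlr4 was 77.0, 146 and 121 in the columns headed LPS- tlr4f/f, 117, 94.7 and 116 in LPS- tlr4f/f-lysM-cre, 31.2, 28.0 and 24.5 in LPS+ tlr4f/f, and 27.4, 24.4 and 24.7 in LPS+ tlr4f/f-lysM-cre. It was thus low in both column groups headed LPS+, and not in the group headed LPS- tlr4f/f-lysM-cre. Lyz2, which encodes lysozyme M, lay between 5953 and 23331 CPM in the 6 libraries headed LPS- and between 10.4 and 75.3 CPM in the 6 headed LPS+. Il1b, which encodes interleukin-1 beta, lay between 1634 and 8224 CPM in the columns headed LPS- tlr4f/f-lysM-cre and between 2488 and 2671 CPM in LPS+ tlr4f/f-lysM-cre. It did not exceed 6.95 CPM in LPS- tlr4f/f and 3.61 CPM in LPS+ tlr4f/f. If the heading LPS- tlr4f/f-lysM-cre is exchanged with the heading LPS+ tlr4f/f, the 6 libraries low in Tlr4 and Lyz2 are those of tlr4f/f-lysM-cre and the 6 high in Il1b are those given LPS. Whether they were exchanged was not tested. Where the calls of the survival genes are counted, each comparison is therefore given in both readings, as headed and with these headings exchanged. Levels and fold changes of single genes are mostly given by column heading alone, and the same exchange applies to them. The exchange alters the names of the comparisons and none of the values. The comparison of LPS+ tlr4f/f-lysM-cre with LPS- tlr4f/f, and the difference of the LPS effects between the genotypes, have the same names in both readings.

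Macrophage markers were measured in all libraries: 8 of 8 had at least 10 counts in each library. Their summed CPM was between 13804 and 29585 in LPS- tlr4f/f, 17878 and 21280 in LPS- tlr4f/f-lysM-cre, 4453 and 4715 in LPS+ tlr4f/f, and 7767 and 7992 in LPS+ tlr4f/f-lysM-cre. Lyz2, used in the check of the headings, is 1 of these 8. Its mean CPM was 13113 in LPS- tlr4f/f and 7574 in LPS- tlr4f/f-lysM-cre. It was 11.9 in LPS+ tlr4f/f and 62.0 in LPS+ tlr4f/f-lysM-cre, and the sums include that difference. The libraries headed LPS- varied more. The biological coefficient of variation common to all genes was 48.1% in LPS- tlr4f/f and 42.6% in LPS- tlr4f/f-lysM-cre, against 8.84% in LPS+ tlr4f/f and 9.04% in LPS+ tlr4f/f-lysM-cre. The summed CPM of 8 fibroblast and stroma markers was 669.5, 61.8 and 9.56 in replicates 1 to 3 of LPS- tlr4f/f and 982, 188 and 1510 in those of LPS- tlr4f/f-lysM-cre. It lay between 21.0 and 25.6 in LPS+ tlr4f/f and between 45.5 and 57.7 in LPS+ tlr4f/f-lysM-cre. The sum of 8 neutrophil markers ranged from 3.88 to 51.0 CPM in LPS- tlr4f/f, from 28.9 to 233.5 in LPS- tlr4f/f-lysM-cre, from 8.94 to 17.4 in LPS+ tlr4f/f and from 10.4 to 18.9 in LPS+ tlr4f/f-lysM-cre, with Ly6g at 0 in all libraries of 3 groups. The part of these other cell types in the differences between groups was not tested beyond the values given without the most stromal libraries. In bulk RNA, fewer cells of a type and less RNA per cell cannot be told apart.

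Cflar, Birc3 and Bcl2a1a were many times higher in both column groups headed tlr4f/f-lysM-cre than in both headed tlr4f/f, while Bcl2 was lower there. Mcl1 and Birc2 were also higher there, by less. Between the highest and the lowest of the 12 libraries, the range was 2.14-fold for Xiap, 2.34-fold for Bcl2l11, 2.79-fold for Bcl2l1, 3.11-fold for Mcl1, 3.26-fold for Birc2 and 3.31-fold for Bbc3, against 31.4-fold for Bcl2, 17.9-fold for Cflar, 18.3-fold for Birc3 and 973-fold for Bcl2a1a.

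**Figure D1:**
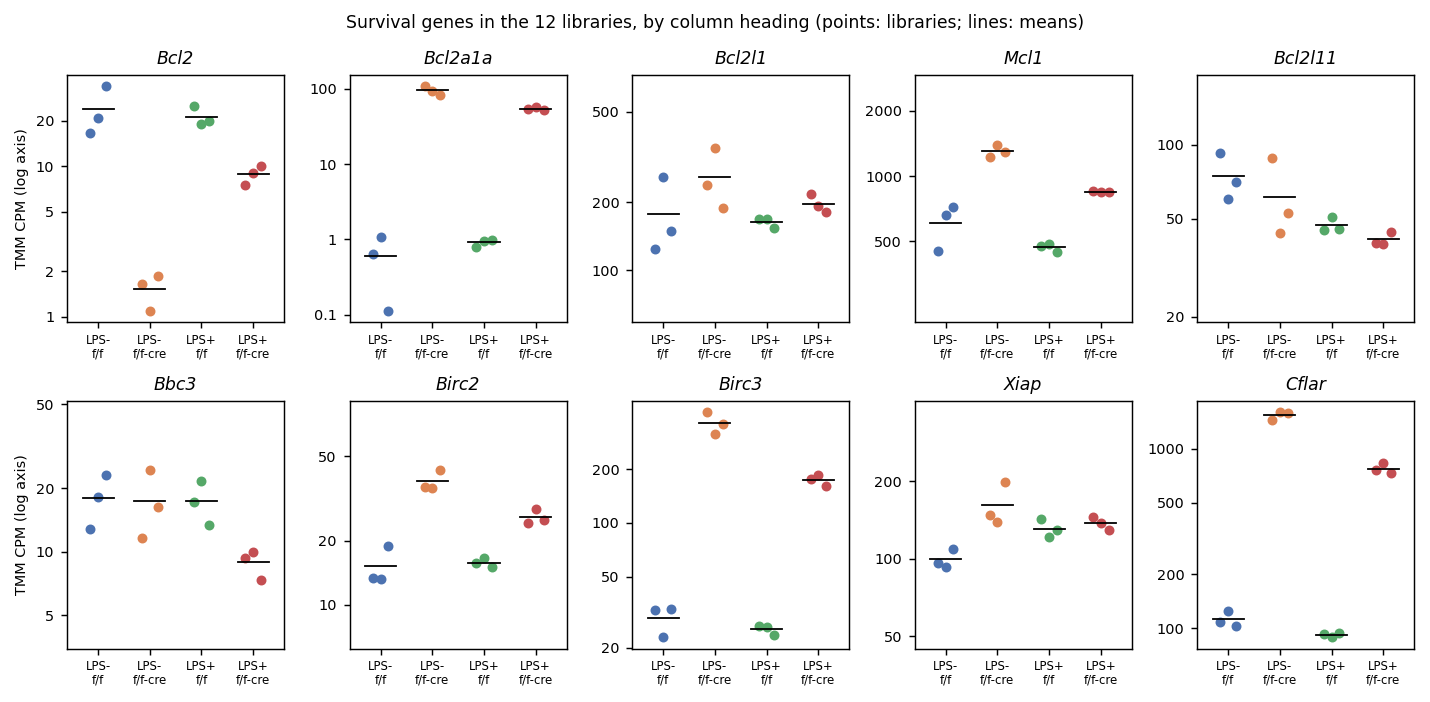
CPM of the 10 survival genes on log axes, with 1 point per library, 3 libraries per column heading and a line at each mean. Bcl2a1a, Birc3 and Cflar are high in both groups headed tlr4f/f-lysM-cre, Bcl2 is low there, and Bcl2l1, Bcl2l11 and Bbc3 overlap between several groups.

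Bcl2, the founding member of its family, lies on chromosome 1 of mm10 (chr1:106538176-106714290, minus strand). Its CPM was 16.6, 20.9 and 34.3 in the columns headed LPS- tlr4f/f and 25.1, 19.1 and 20.0 in LPS+ tlr4f/f. It was 1.64, 1.09 and 1.87 in LPS- tlr4f/f-lysM-cre and 7.53, 9.08 and 10.0 in LPS+ tlr4f/f-lysM-cre. The tlr4f/f columns overlapped each other, and both tlr4f/f-lysM-cre groups lay below them without overlap. Bcl2 fell by 3.96 on the log2 scale (SE 0.381, adjusted p = 0.0010) from LPS- tlr4f/f to LPS- tlr4f/f-lysM-cre, which is 15.6-fold. From LPS+ tlr4f/f to LPS+ tlr4f/f-lysM-cre it fell by 1.26 (SE 0.133, adjusted p = 8.98e-06). Bcl2 rose by 2.54 (SE 0.272, adjusted p = 0.00242) from LPS- tlr4f/f-lysM-cre to LPS+ tlr4f/f-lysM-cre. With the headings exchanged, the first of these differences is the LPS effect in tlr4f/f, the next is the LPS effect in tlr4f/f-lysM-cre, and the last compares the genotypes under LPS. Mir3473f and Gm37053 overlap Bcl2, and reads of overlapping genes cannot be told apart where the counting is not stated to use strand.

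Bcl2a1a encodes A1, a short-lived anti-apoptotic protein of leukocytes. It is 1 of 3 nearly identical genes on chromosome 9 (chr9:88956920-88962416, plus strand). The coding sequences of Bcl2a1a, Bcl2a1b and Bcl2a1d have 519 bases each, of which 12 are not the same in all 3 genes. Bcl2a1a differs from Bcl2a1b at 11 bases and from Bcl2a1d at 7. The start of the coding sequence (bases 1 to 150, GENCODE, build GRCm38) is shown because 7 of the 12 differing bases lie there, and these are in capitals.
Bcl2a1a: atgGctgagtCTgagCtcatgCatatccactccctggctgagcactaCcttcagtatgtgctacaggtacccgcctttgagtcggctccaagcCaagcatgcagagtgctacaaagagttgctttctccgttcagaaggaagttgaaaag
Bcl2a1b: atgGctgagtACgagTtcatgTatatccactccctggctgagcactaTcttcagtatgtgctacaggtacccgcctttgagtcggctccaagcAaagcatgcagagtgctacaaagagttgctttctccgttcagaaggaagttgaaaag
Bcl2a1d: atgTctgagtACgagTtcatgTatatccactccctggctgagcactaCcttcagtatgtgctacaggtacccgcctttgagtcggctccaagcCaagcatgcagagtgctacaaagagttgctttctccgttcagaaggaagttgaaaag
Of all stretches of 150 bases (the read length) in the transcripts, 28.2% of Bcl2a1a, 14.2% of Bcl2a1b and 30.3% of Bcl2a1d occur unchanged in another of these genes. How the counting divided such reads is not given in the sources used here, so the level of Bcl2a1a alone is uncertain.

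The CPM of Bcl2a1a was 0.635, 1.08 and 0.112 in LPS- tlr4f/f, from 37, 68 and 6 counts, and 0.800, 0.954 and 0.989 in LPS+ tlr4f/f, from 38, 37 and 57 counts. It was 109, 94.1 and 82.6 in LPS- tlr4f/f-lysM-cre and 53.1, 58.0 and 52.0 in LPS+ tlr4f/f-lysM-cre. Every library headed tlr4f/f-lysM-cre thus held at least 2116 counts, and no library headed tlr4f/f more than 68. Bcl2a1a rose by 7.25 on the log2 scale (SE 0.762, adjusted p = 0.00132) from LPS- tlr4f/f to LPS- tlr4f/f-lysM-cre. It rose by 5.90 (SE 0.101, adjusted p = 8.06e-13) from LPS+ tlr4f/f to LPS+ tlr4f/f-lysM-cre. In LPS+ tlr4f/f-lysM-cre against LPS- tlr4f/f-lysM-cre the log2 fold change was -0.80 (SE 0.129, adjusted p = 0.00752), under the 2-fold limit. Of the counts of all 3 genes, Bcl2a1a took 9.03 to 10.8% in LPS- tlr4f/f-lysM-cre, 7.63 to 8.43% in LPS+ tlr4f/f-lysM-cre, 1.69 to 5.38% in LPS- tlr4f/f and 1.67 to 2.09% in LPS+ tlr4f/f. Bcl2a1b took the largest part in every group, from 53.7 to 84.4%.

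The paralogs showed the same order of groups. The CPM of Bcl2a1b was 9.21, 54.2 and 4.52 in LPS- tlr4f/f, 605, 587 and 441 in LPS- tlr4f/f-lysM-cre, 36.4, 42.6 and 35.9 in LPS+ tlr4f/f, and 396, 409 and 343 in LPS+ tlr4f/f-lysM-cre. Bcl2a1d had 1.96, 8.92 and 1.09 CPM in LPS- tlr4f/f, 411, 361 and 241 in LPS- tlr4f/f-lysM-cre, 10.6, 11.01 and 10.3 in LPS+ tlr4f/f, and 247, 270.0 and 221 in LPS+ tlr4f/f-lysM-cre. Bcl2a1d rose by 6.38 (adjusted p = 0.00357) from LPS- tlr4f/f to LPS- tlr4f/f-lysM-cre and by 4.54 (adjusted p = 8.22e-13) from LPS+ tlr4f/f to LPS+ tlr4f/f-lysM-cre. For Bcl2a1b the corresponding log2 fold changes were 4.57, which did not pass the test (adjusted p = 0.0139), and 3.33, which did (adjusted p = 7.75e-11). In LPS- tlr4f/f, replicate 2 was the highest library for all 3 genes and replicate 3 the lowest. Since these genes moved together, a stretch ahead of their annotated starts (mm10) is shown, with the base at which Bcl2a1d differs from Bcl2a1a in a capital.
Bcl2a1a, chr9:88956714-88956855, plus strand: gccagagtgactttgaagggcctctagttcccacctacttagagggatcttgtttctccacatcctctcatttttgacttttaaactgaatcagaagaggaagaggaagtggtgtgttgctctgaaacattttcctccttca
Bcl2a1d, chr9:88731915-88732050, minus strand: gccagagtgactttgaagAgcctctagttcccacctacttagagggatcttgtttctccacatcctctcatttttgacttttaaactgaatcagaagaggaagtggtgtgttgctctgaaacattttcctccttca
The stretch of Bcl2a1b (chr9:89199023-89199164, plus strand) is the same as that of Bcl2a1a over 142 bases. That of Bcl2a1d differs by 1 base and lacks 6 bases.

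Mcl1, which encodes an anti-apoptotic protein with a short life, is at chr3:95656944-95663179 (plus strand). Its CPM was 452, 660.1 and 718 in LPS- tlr4f/f, 1221, 1389.9 and 1292 in LPS- tlr4f/f-lysM-cre, 477, 488 and 447 in LPS+ tlr4f/f, and 849.6, 839.8 and 848 in LPS+ tlr4f/f-lysM-cre. The columns headed tlr4f/f-lysM-cre lay above both tlr4f/f groups in every library. The log2 fold change was 1.09 (SE 0.233, adjusted p = 0.0128) in LPS- tlr4f/f-lysM-cre against LPS- tlr4f/f. It was 0.86 (SE 0.0528, adjusted p = 2.60e-08) in LPS+ tlr4f/f-lysM-cre against LPS+ tlr4f/f, where the groups were separated at less than 2-fold. Neither passed the limits on fold and adjusted p together.

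Bcl2l1, which encodes BCL-XL, is at chr2:152758732-152833803 (minus strand), and Cox4i2 and Gm32211 overlap it. Its CPM was 124, 257 and 149.6 in LPS- tlr4f/f, 237, 347 and 188 in LPS- tlr4f/f-lysM-cre, 168, 169 and 153 in LPS+ tlr4f/f, and 217, 192 and 181 in LPS+ tlr4f/f-lysM-cre. The groups overlapped except in 1 comparison, that of LPS+ tlr4f/f-lysM-cre with LPS+ tlr4f/f. There the log2 fold change was 0.28 (SE 0.0686, adjusted p = 0.00371), and in the other pairwise comparisons the adjusted p was between 0.243 and 0.846.

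The BH3-only members Bcl2l11 and Bbc3 did not pass the limits in any comparison. Bcl2l11 (chr2:128126038-128162547, plus strand, overlapping Acoxl) had 92.5, 60.03 and 70.8 CPM in LPS- tlr4f/f, 88.1, 43.8 and 52.6 in LPS- tlr4f/f-lysM-cre, 45.2, 50.8 and 45.5 in LPS+ tlr4f/f, and 40.1, 39.6 and 44.0 in LPS+ tlr4f/f-lysM-cre. Both groups headed LPS+ lay below every library of LPS- tlr4f/f. Against that group the log2 fold change was -0.85 in LPS+ tlr4f/f-lysM-cre (SE 0.166, adjusted p = 0.00924) and -0.64 in LPS+ tlr4f/f (SE 0.168, adjusted p = 0.0931). BIM is made from several transcripts, and the 9 rows of Bcl2l11 did not share a direction: in LPS- tlr4f/f-lysM-cre against LPS- tlr4f/f their log2 ratios ran from -0.40 to 0.75. Bbc3 (chr7:16308398-16318334, plus strand) had 12.8, 18.2 and 23.0 CPM in LPS- tlr4f/f, 11.6, 24.4 and 16.3 in LPS- tlr4f/f-lysM-cre, 17.1, 21.7 and 13.3 in LPS+ tlr4f/f, and 9.37, 9.90 and 7.37 in LPS+ tlr4f/f-lysM-cre. The last group lay below all other libraries, while the other 3 groups overlapped. Its log2 fold change was -0.96 (SE 0.188, adjusted p = 0.00234) against LPS+ tlr4f/f and -1.02 (SE 0.240, adjusted p = 0.0177) against LPS- tlr4f/f.

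Birc3 and Birc2, which encode cIAP2 and cIAP1, are neighbours on the minus strand of chromosome 9 (chr9:7847468-7873205 and chr9:7818226-7837131). The CPM of Birc3 was 32.4, 22.8 and 33.0 in LPS- tlr4f/f, 418, 316 and 359 in LPS- tlr4f/f-lysM-cre, 26.6, 26.2 and 23.5 in LPS+ tlr4f/f, and 176, 186 and 161 in LPS+ tlr4f/f-lysM-cre. Both groups headed tlr4f/f-lysM-cre lay above every tlr4f/f library, and the group headed LPS- tlr4f/f-lysM-cre lay above that headed LPS+ tlr4f/f-lysM-cre. Birc3 rose by 3.62 (SE 0.227, adjusted p = 4.54e-04) from LPS- tlr4f/f to LPS- tlr4f/f-lysM-cre and by 2.79 (SE 0.0700, adjusted p = 8.53e-12) from LPS+ tlr4f/f to LPS+ tlr4f/f-lysM-cre. From LPS- tlr4f/f-lysM-cre to LPS+ tlr4f/f-lysM-cre it fell by 1.05 (SE 0.144, adjusted p = 0.00464).

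Birc2 was also highest in LPS- tlr4f/f-lysM-cre and next in LPS+ tlr4f/f-lysM-cre, with smaller differences, while its tlr4f/f groups overlapped each other. Its CPM was 13.3, 13.2 and 18.9 in LPS- tlr4f/f, 35.8, 35.5 and 43.0 in LPS- tlr4f/f-lysM-cre, 15.7, 16.5 and 15.02 in LPS+ tlr4f/f, and 24.3, 28.2 and 25.0 in LPS+ tlr4f/f-lysM-cre. It rose by 1.33 (SE 0.199, adjusted p = 0.00364) from LPS- tlr4f/f to LPS- tlr4f/f-lysM-cre. In LPS+ tlr4f/f-lysM-cre against LPS+ tlr4f/f the log2 fold change was 0.72 (SE 0.0807, adjusted p = 6.44e-06), without overlap and under 2-fold.

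Xiap, on the X chromosome (X:42059613-42109664, plus strand), had the narrowest range of the 10 genes, 2.14-fold over all libraries. Its CPM was 96.6, 92.9 and 109 in LPS- tlr4f/f, 148, 139 and 198 in LPS- tlr4f/f-lysM-cre, 143, 121 and 129.6 in LPS+ tlr4f/f, and 146, 138 and 129.5 in LPS+ tlr4f/f-lysM-cre. All other libraries lay above those of LPS- tlr4f/f. The log2 fold change against that group was 0.70 in LPS- tlr4f/f-lysM-cre (adjusted p = 0.0280), 0.41 in LPS+ tlr4f/f (adjusted p = 0.0863) and 0.47 in LPS+ tlr4f/f-lysM-cre (adjusted p = 0.0110).

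The CPM of Cflar (chr1:58711311-58758884, plus strand) was 108, 125 and 103 in LPS- tlr4f/f, 1447, 1597 and 1575 in LPS- tlr4f/f-lysM-cre, 92.6, 89.0 and 94.5 in LPS+ tlr4f/f, and 764, 831 and 729.7 in LPS+ tlr4f/f-lysM-cre. The column groups did not overlap in any pairwise comparison. Cflar rose by 3.77 (SE 0.203, adjusted p = 3.93e-04) from LPS- tlr4f/f to LPS- tlr4f/f-lysM-cre, which is 13.7-fold, and by 3.08 (SE 0.0639, adjusted p = 2.20e-12) from LPS+ tlr4f/f to LPS+ tlr4f/f-lysM-cre, which is 8.47-fold. From LPS- tlr4f/f-lysM-cre to LPS+ tlr4f/f-lysM-cre the log2 fold change was -0.98 (SE 0.119, adjusted p = 0.00325), just under the 2-fold limit. All transcripts listed for Cflar, 12 rows, gave log2 ratios between 3.76 and 3.85 for the first difference, and the 7 rows of Birc3 between 3.63 and 3.67. The second row of Cflar held 99.8% of the counts of its top row, and every Birc3 row at least 95.8%. Such rows may hold the same reads, so their ratios are not separate measurements.

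A gene was called in a comparison when its fold change was above 2 and its adjusted p below 0.01 (edgeR quasi-likelihood test, adjusted over all genes tested). All 10 survival genes passed the filter on low counts in every comparison. The comparisons share column groups and are not independent of each other.

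**Figure D2:**
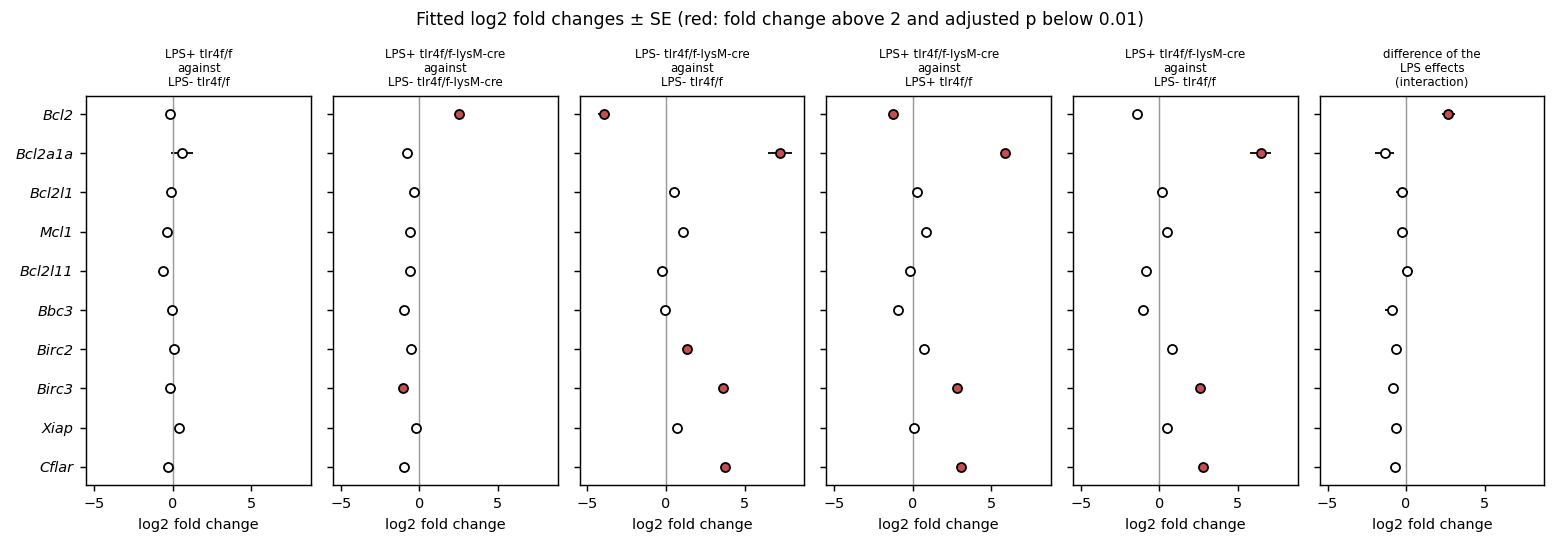
Log2 fold changes (points) and their SE (bars) of the 10 survival genes in 5 pairwise comparisons of column groups and for the difference of the LPS effects, with called genes in red. Bcl2a1a, Birc3 and Cflar are called higher in 3 comparisons each, and no gene is called between LPS+ tlr4f/f and LPS- tlr4f/f.

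As headed, the effect of LPS in tlr4f/f compares LPS+ tlr4f/f with LPS- tlr4f/f. With the headings exchanged, the same columns compare resting tlr4f/f-lysM-cre with resting tlr4f/f. None of the 10 survival genes was called (0 of 10), nor was any of 14712 genes (0%). At an adjusted p below 0.05 there was none either, beside 1.28% of all genes. At an unadjusted p below 0.05 there were 3, Bcl2l11, Xiap and Cflar, beside 24.6% of all genes, and the groups of these 3 did not overlap, beside 35.3% of all genes. DESeq2 also called 0 of 10, beside 3.17% of all genes, and limma voom 0 of 10, beside 0.34%. The log2 fold change of Bcl2 was -0.14 (SE 0.275), that of Birc3 -0.19 (SE 0.157) and that of Bcl2a1a 0.58 (SE 0.719), the last from few counts. Over the 10 genes the median was -0.12, beside -0.03 over all genes.

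As headed, the effect of LPS in tlr4f/f-lysM-cre compares LPS+ with LPS- tlr4f/f-lysM-cre. With the exchange it compares tlr4f/f-lysM-cre with tlr4f/f, both given LPS. Bcl2 rose, 1 of 10 beside 2.42% of 14245 genes, and Birc3 fell, 1 of 10 beside 3.66%, which makes 2 of 10 beside 6.09% in either direction. At an adjusted p below 0.05 and any fold, Bcl2 was higher and 6 genes were lower (Bcl2a1a, Mcl1, Bbc3, Birc2, Birc3, Cflar), beside 26.7% of all genes in either direction. Mcl1 had a log2 fold change of -0.61 (SE 0.110, adjusted p = 0.0106) there. The groups did not overlap in 7 of 10, beside 48.0% of all genes. The median was -0.59 over the 10 genes and 0.03 over all genes. Neither call was made after omitting any 1 of the 3 libraries of LPS+ tlr4f/f-lysM-cre. The adjusted p of Bcl2 was then 0.0178 to 0.0224 and that of Birc3 0.0332 to 0.0384, and 4 to 15 genes were called in the whole table. Without LPS- tlr4f/f-lysM-cre replicate 1, Birc3 fell under the 2-fold limit (log2 -0.96) and Cflar passed it (log2 -1.04).

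As headed, the effect of the genotype without LPS compares LPS- tlr4f/f-lysM-cre with LPS- tlr4f/f. With the exchange these columns give the effect of LPS in tlr4f/f. Bcl2a1a, Birc2, Birc3 and Cflar rose, 4 of 10 beside 9.26% of 14649 genes, and Bcl2 fell, 1 of 10 beside 7.81%, so that 5 of 10 were called beside 17.1%. At an adjusted p below 0.05 and any fold there were 6 higher and 1 lower, beside 37.3% of all genes in either direction. The groups did not overlap in 7 of 10, beside 54.1% of all genes. The median log2 fold change was 0.89 over the 10 genes and -0.08 over all genes. Birc2 was not called when any library other than LPS- tlr4f/f replicate 3 was left out (adjusted p 0.0125 to 0.0173). In those fits 1039 to 1429 of all genes were called, in place of 2500. Of the 6 libraries compared, 3 had the highest sums of stromal markers, 669.5 to 1510 CPM, and LPS- tlr4f/f replicate 3 had the lowest of all, 9.56. Without those 3 libraries, a choice made after seeing the data, 1 library is left in LPS- tlr4f/f-lysM-cre, whose spread is then assumed to be that of the other group. The log2 fold changes were then -4.62 for Bcl2, 7.29 for Bcl2a1a, 1.18 for Birc2, 3.54 for Birc3 and 3.84 for Cflar, and none of 15838 genes was called (adjusted p of these genes 0.0405 to 0.132).

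As headed, the effect of the genotype with LPS compares LPS+ tlr4f/f-lysM-cre with LPS+ tlr4f/f, the groups with the least spread and few stromal counts. With the exchange these columns give the effect of LPS in tlr4f/f-lysM-cre. Bcl2a1a, Birc3 and Cflar rose, 3 of 10 beside 10.8% of 14551 genes, and Bcl2 fell, 1 of 10 beside 10.9%, so that 4 of 10 were called beside 21.8%. At an adjusted p below 0.05 and any fold there were 6 higher and 3 lower, beside 61.4% of all genes in either direction. The groups did not overlap in 9 of 10, all but Xiap, beside 67.5% of all genes. The median was 0.50 over the 10 genes and -0.02 over all genes. Bbc3, with a log2 fold change of -0.96, passed the 2-fold limit without LPS+ tlr4f/f replicate 3 (-1.13) or LPS+ tlr4f/f-lysM-cre replicate 2 (-1.04).

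LPS+ tlr4f/f-lysM-cre was compared with LPS- tlr4f/f because these names hold in both readings. Bcl2a1a rose by 6.45 (SE 0.675, adjusted p = 0.00124), Birc3 by 2.57 (SE 0.166, adjusted p = 2.72e-04) and Cflar by 2.79 (SE 0.129, adjusted p = 1.68e-04), 3 of 10 beside 6.93% of 14595 genes. None of the 10 was called lower, beside 6.45% of all genes, so that 3 of 10 were called beside 13.4%. At an adjusted p below 0.05 and any fold there were 5 higher and 3 lower, beside 40.7% in either direction. The groups did not overlap in 9 of 10, all but Bcl2l1, beside 57.9% of all genes. Bcl2 had a log2 fold change of -1.42 (SE 0.287, adjusted p = 0.0104), and its groups did not overlap. Without LPS- tlr4f/f replicate 1, which held the most stromal counts of its group, Bcl2 (log2 -1.63, adjusted p = 0.00545) and Bbc3 (log2 -1.21, adjusted p = 0.00579) were called as well, 5 in all. Without LPS- tlr4f/f replicate 3 Bcl2 was called (log2 -1.08, adjusted p = 0.00412). Over all alternatives the adjusted p of Bcl2 was between 3.08e-05 and 0.0501. Without LPS+ tlr4f/f-lysM-cre replicate 2 the adjusted p of Bcl2a1a was 0.0102, and 2 genes were called.

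The difference of the LPS effects, that in tlr4f/f-lysM-cre minus that in tlr4f/f, was the same number in both readings and used all 12 libraries. It was 2.69 for Bcl2 (SE 0.391, adjusted p = 0.00523), the only one of the 10 called higher, beside 0.589% of 15792 genes. None was called lower, beside 0.405%, and 1 of 10 was called beside 0.994% in either direction. At an unadjusted p below 0.05 there were 6 of 10, beside 23.4% of all genes. As headed, the difference stands for a log2 change of Bcl2 of 2.54 in tlr4f/f-lysM-cre, set against -0.14 in tlr4f/f. With the exchange it stands for -1.26 in tlr4f/f-lysM-cre, set against -3.96 in tlr4f/f. For Cflar the difference was -0.71 (SE 0.160, adjusted p = 0.0274) and for Birc3 -0.85 (SE 0.216, adjusted p = 0.0397), both past an adjusted p of 0.05, as 6.99% of all genes were, and under the 2-fold limit. Over all genes 93 were called higher and 64 lower, and with the RLE scaling 64 higher and 80 lower, where Bcl2 was called too. With the exchange, that is a log2 rise of Cflar of 3.77 in tlr4f/f, against 3.08 in tlr4f/f-lysM-cre. For the other 7 genes the adjusted p was between 0.0793 and 0.907. The call of Bcl2 was lost when any 1 of the 6 libraries headed LPS+ was left out (adjusted p 0.0165 to 0.0242). Over all genes, 10 to 21 were called in those fits, in place of 157. The call of Bcl2 was made without any 1 of the 6 headed LPS-, where 99 to 306 of all genes were called.

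The members were also set in order of level per transcript length (CPM per kb, mean ± SD, n = 3). Mcl1 was the highest in all 4 groups: 175 ± 40.1 in LPS- tlr4f/f, 373 ± 24.3 in LPS- tlr4f/f-lysM-cre, 135 ± 6.01 in LPS+ tlr4f/f and 243 ± 1.52 in LPS+ tlr4f/f-lysM-cre. In both tlr4f/f groups Bcl2l1 followed, with 52.2 ± 20.8 in LPS- and 48.1 ± 2.65 in LPS+, and Bcl2a1a was last with 0.767 ± 0.611 and 1.15 ± 0.127. In both tlr4f/f-lysM-cre groups Cflar followed Mcl1, with 214 ± 11.3 in LPS- and 108 ± 7.14 in LPS+, and Bcl2 was last with 0.212 ± 0.0553 and 1.23 ± 0.175. Bcl2a1a and Birc3 stood next to each other in both of those groups and overlapped, at 120 ± 16.9 and 129 ± 18.2 in LPS- tlr4f/f-lysM-cre and at 68.3 ± 4.03 and 61.9 ± 4.34 in LPS+ tlr4f/f-lysM-cre. In LPS- tlr4f/f, neighbours that overlapped were Cflar with Bcl2l11, Bcl2l11 with Xiap, Birc3 with Bbc3, and Birc2 with Bcl2.

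The make-up of the anti-apoptotic BCL2 family was described from the same scale, as shares of the summed CPM per kb of 7 genes (Mcl1, Bcl2l1, Bcl2, Bcl2l2 and the 3 Bcl2a1 genes). Mcl1 held 65.9% ± 12.3 in LPS- tlr4f/f and 52.7% ± 0.625 in LPS+ tlr4f/f, against 22.1% ± 3.76 in LPS- tlr4f/f-lysM-cre and 20.5% ± 1.51 in LPS+ tlr4f/f-lysM-cre (SD, n = 3). The Bcl2a1 genes together held 11.4% ± 10.7 and 25.2% ± 1.12 in the tlr4f/f groups, in the same order, and 72.9% ± 3.87 and 73.8% ± 1.65 in the tlr4f/f-lysM-cre groups. Their sum is less open than Bcl2a1a alone to how reads were divided among the copies. Bcl2 held 1.26% ± 0.491 and 1.16% ± 0.186 in the tlr4f/f groups and 0.0128% ± 0.00507 and 0.104% ± 0.0205 in the tlr4f/f-lysM-cre groups.

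**Figure D3:**
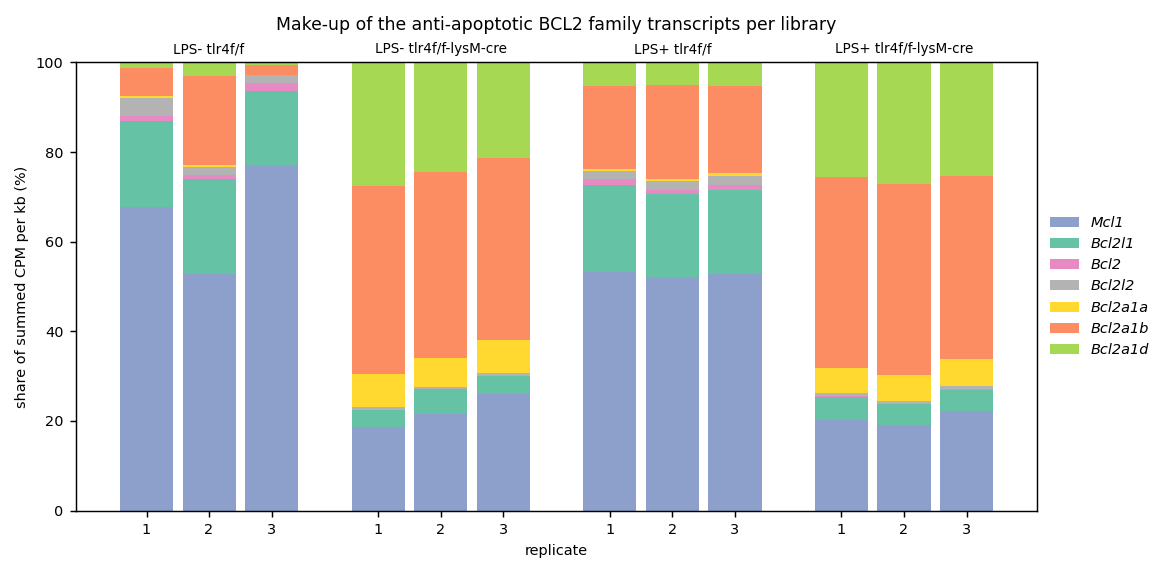
Share (%) of each anti-apoptotic BCL2 family gene in the summed CPM per kb of 7 genes, 1 bar per library, grouped by column heading. The Bcl2a1 genes take between 69.3 and 77.0% in the 6 bars headed tlr4f/f-lysM-cre and between 2.78 and 26.4% in the 6 headed tlr4f/f.

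Around these members, 43 other genes of the pathway were counted by role. In LPS+ tlr4f/f-lysM-cre against LPS+ tlr4f/f, 9 rose and 3 fell of 37 tested, beside 10.8% higher and 10.9% lower over all genes. In LPS- tlr4f/f-lysM-cre against LPS- tlr4f/f, 10 rose and 1 fell of 38, beside 9.26% and 7.81%. In LPS+ tlr4f/f-lysM-cre against LPS- tlr4f/f, 6 rose and 1 fell of 37, beside 6.93% and 6.45%. In LPS+ against LPS- tlr4f/f-lysM-cre, none of 37 rose and 2 fell, beside 2.42% and 3.66%. At an adjusted p below 0.05 and any fold, 2 of the 37 were higher and 10 lower, beside 26.7% of all genes in either direction. None of 39 was called in LPS+ tlr4f/f against LPS- tlr4f/f, with 6 at an unadjusted p below 0.05, beside 24.6% of all genes. None of 39 was called for the difference of the LPS effects, with 10 at an unadjusted p below 0.05, beside 23.4%. The medians over this list, beside those over all genes, were 0.31 and -0.02, 0.70 and -0.08, and 0.34 and -0.05 in the first 3 of these comparisons. They were -0.29 and 0.03 in LPS+ against LPS- tlr4f/f-lysM-cre, 0.09 and -0.03 in LPS+ against LPS- tlr4f/f, and -0.28 and 0.05 for the difference of the LPS effects.

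Between the groups headed LPS-, 3 of 10 genes of the death receptor complex rose, 3 of 8 of the apoptosome and caspases, 1 of 6 of the IAP family, 1 of 3 IAP antagonists, 1 of 3 tested anti-apoptotic genes (Bcl2a1d) and 1 of 6 tested BH3-only genes, beside 9.26% of all genes. The last was Bnip3, a pro-death gene (log2 1.92, adjusted p = 0.00617). Fas, the death receptor, had 2.92, 1.29 and 1.41 CPM in LPS- tlr4f/f, 35.4, 55.5 and 43.2 in LPS- tlr4f/f-lysM-cre, 1.66, 1.93 and 1.61 in LPS+ tlr4f/f, and 41.4, 44.6 and 43.4 in LPS+ tlr4f/f-lysM-cre. It rose by 4.57 (adjusted p = 7.78e-04) between the groups headed LPS- and by 4.65 (adjusted p = 1.90e-12) between those headed LPS+. Tnfaip3, which encodes A20, an enzyme that damps NF-kB and protects from TNF-induced death, rose by 5.90 (adjusted p = 0.00123) between the groups headed LPS-. It fell by 2.12 (adjusted p = 9.62e-04) from LPS- tlr4f/f-lysM-cre to LPS+ tlr4f/f-lysM-cre. Casp8, the caspase that Cflar holds back, fell by 1.18 (adjusted p = 0.00134) in that last comparison and rose by 1.88 (adjusted p = 0.00116) between the groups headed LPS-. Of the death receptor complex, Fas, Traf2 and Tnfaip3 were called higher in 3 comparisons, and Naip2 of the IAP family and Xaf1, an antagonist of XIAP, in the same ones.

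Bmf, a BH3-only gene, had 23.2, 9.45 and 75.2 CPM in LPS- tlr4f/f and 10.3, 9.72 and 10.1 in LPS+ tlr4f/f, against 1.32, 0.312 and 0.747 in LPS- tlr4f/f-lysM-cre and 0.483, 0.850 and 0.951 in LPS+ tlr4f/f-lysM-cre. It was below both tlr4f/f groups in every library headed tlr4f/f-lysM-cre, and fell by 5.49 (adjusted p = 0.00693) between the groups headed LPS- and by 3.71 (adjusted p = 6.74e-09) between those headed LPS+. Casp9, the caspase of the apoptosome, fell by 1.24 (adjusted p = 3.72e-09), and Birc5, survivin, which also serves in mitosis, by 1.02 (adjusted p = 6.30e-04), both from LPS+ tlr4f/f to LPS+ tlr4f/f-lysM-cre. Of the effectors Bax and Bak1, which open the mitochondrial membrane, neither was called in any comparison. From LPS+ tlr4f/f to LPS+ tlr4f/f-lysM-cre both rose under 2-fold and without overlap, beside 67.5% of all genes. Bax rose by 0.38 (adjusted p = 6.67e-05) and Bak1 by 0.49 (adjusted p = 7.94e-06). Both were lower without overlap in LPS+ against LPS- tlr4f/f-lysM-cre (adjusted p 0.107 and 0.0932).

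**Figure D4:**
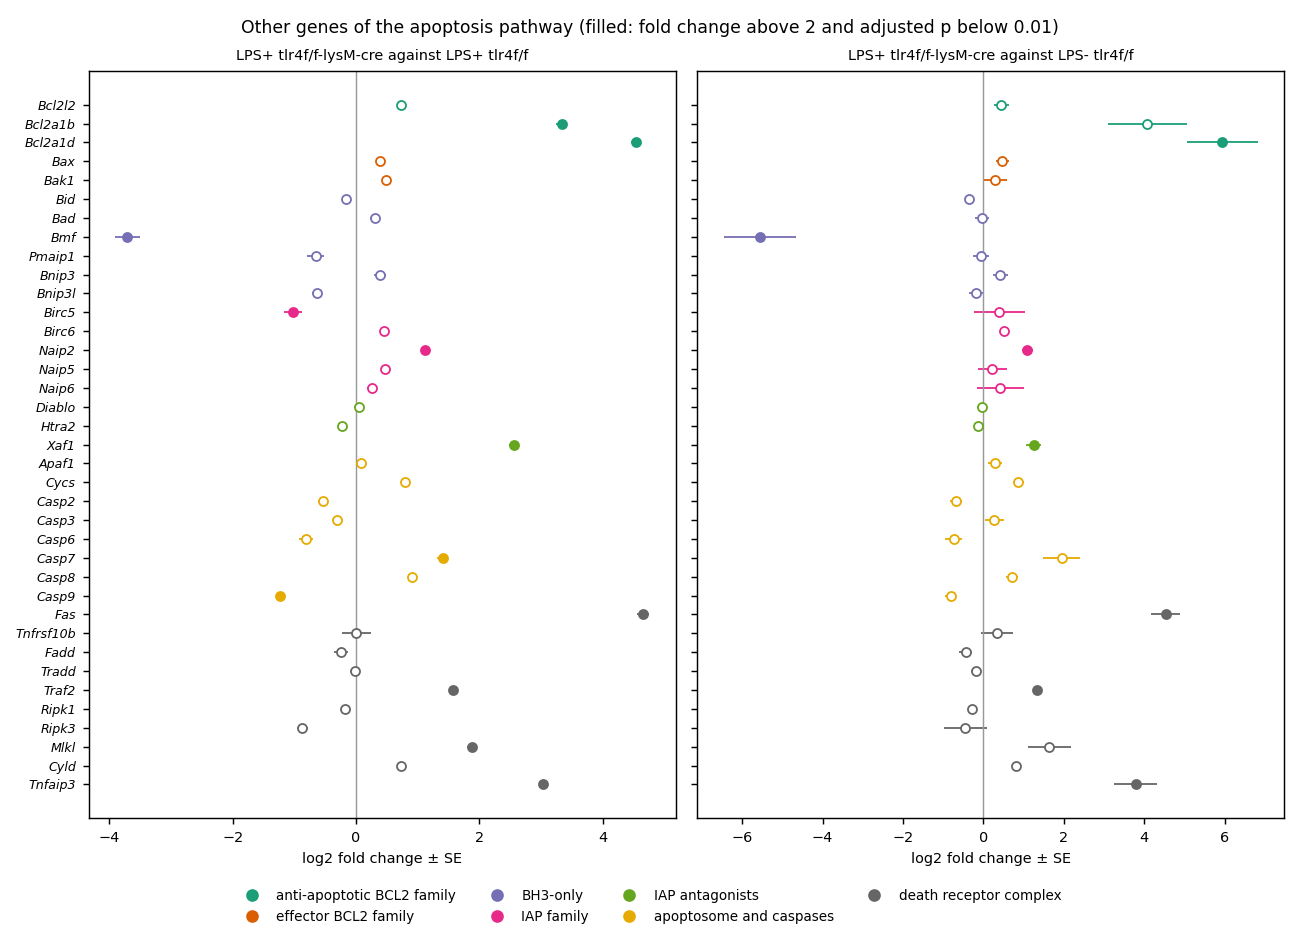
Log2 fold changes ± SE of the other apoptosis genes that were tested, coloured by role, in LPS+ tlr4f/f-lysM-cre against LPS+ tlr4f/f (left) and against LPS- tlr4f/f (right), with called genes filled. Fas, Bcl2a1d and Tnfaip3 lie far to the right in both panels and Bmf far to the left.

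For each member called at least once, the genes of most similar pattern were sought by the root mean square difference in log2 CPM, centred per gene, over 12 libraries and 15792 genes. They were Lpar6 (0.27) and Arrb1 (0.29) for Bcl2, Tnip1 (0.21) and Nfkbie (0.23) for Birc3, Tmem2 (0.18) and Car13 (0.20) for Cflar, Rab5a (0.12) and Ppp1r12a (0.12) for Birc2, and Gbp2 (0.53) and Ccl3 (0.73) for Bcl2a1a. The standard deviation of the members' own log2 CPM was 1.67 for Bcl2, 1.73 for Birc3, 1.83 for Cflar, 0.60 for Birc2 and 3.59 for Bcl2a1a, which gives the scale of these differences.

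The 250 bases before each RefSeq transcript start (GRCm38) were searched on both strands for the NF-kB consensus. It was found in 7.25% of 32851 start windows and in 2 of the 18 windows of the survival genes, 11.1%. These were 1 of the 3 windows of Bcl2l1 and 1 of the 3 of Bbc3, which held 2 overlapping matches. A match is a description of letters, and its absence from a window says nothing of the factor.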

How the data were processed

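Poly(A) RNA of 12 BMDM libraries was sequenced by the authors, whose submission notes name Trimmomatic 0.36, FastQC, HISAT2 and HTSeq and the mouse build mm10. The authors deposited raw counts per transcript, not normalized, for 115140 rows (43453 genes). Whether the counting used strand is not given in the sources used here. All columns of samples were used, and no row lacked a gene name. For each gene the row with the highest total was kept.

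Counts were tested with edgeR 4.0.16 in R 4.3.3 (quasi-likelihood test with robust dispersions, TMM scaling, filterByExpr, 3 libraries against 3, or all 12 for the difference of the LPS effects). P-values were adjusted by Benjamini-Hochberg over all genes tested in a comparison, and tests are two-sided. Called genes had a fold change over 2 with an adjusted p under 0.01. Non-overlap means that every library of one group lies above every library of the other. Log2 CPM used a prior count of 2. Alternatives were DESeq2 1.42.0, limma 3.58.1 (voom), RLE scaling, other filters, 1 fit of 12 libraries, the replicate block, summed transcripts, omitted libraries and exchanged headings. The scripts were tested on simulated data.

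The members and the list of 43 other apoptosis genes were chosen with earlier results of these data known. Of the other genes, those named with values were, in each comparison, the 3 called with the largest change in each direction among those whose higher group had no library under 10 counts, plus the Bcl2a1 paralogs. Bnip3, the rise of Casp8, the values of Bax and Bak1, and Traf2, Naip2, Xaf1 and the other genes named without values were picked after their results were seen. Figures were drawn with matplotlib 3.10.9. Gene positions and start windows are from RefSeq on GRCm38, which is mm10. The transcript and coding sequences of the Bcl2a1 genes are from GENCODE on the same build. The stretches ahead of these genes were cut at their GENCODE starts.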

Additional observations from a re-analysis of the deposited data

Results flagged for a closer look

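In the interaction test of edgeR over 12 libraries, the LPS effect differed between the genotypes at an adjusted p below 0.05 for 3 of the 10 survival genes, beside 6.99% of all genes. Of these, Bcl2 also passed the limits of 2-fold and an adjusted p of 0.01, and Birc3 and Cflar did not. The difference is the log2 LPS effect in tlr4f/f-lysM-cre minus that in tlr4f/f, and its value is the same whether or not the headings are exchanged.

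For Bcl2 it was 2.69 (SE 0.391, adjusted p = 0.00523). As headed, Bcl2 was higher in all 3 libraries given LPS than in all 3 without LPS for tlr4f/f-lysM-cre, while the libraries of tlr4f/f overlapped. With the headings exchanged, Bcl2 was lower in 3 of 3 libraries given LPS in both genotypes, by a log2 fold change of -3.96 for tlr4f/f, against -1.26 for tlr4f/f-lysM-cre.

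For Birc3 the difference was -0.85 (SE 0.216, adjusted p = 0.0397), made of -1.05 for tlr4f/f-lysM-cre against -0.19 for tlr4f/f as headed, or of 2.79 and 3.62 with the headings exchanged. For Cflar it was -0.71 (SE 0.160, adjusted p = 0.0274), made of -0.98 and -0.27 as headed, or of 3.08 and 3.77 with the headings exchanged. Over the alternatives the adjusted p ran from 0.00198 to 0.115 for Birc3, from 8.28e-06 to 0.0966 for Cflar and from 6.01e-08 to 0.0467 for Bcl2.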

How the results depend on the processing

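With the headings exchanged, the number of survival genes called was 5 for LPS in tlr4f/f, 4 for that in tlr4f/f-lysM-cre, 0 for the genotype without LPS and 2 for the genotype with LPS, in place of 0, 2, 5 and 4. From here on the comparisons are named as headed only. With the replicate block, 0 were called for LPS in tlr4f/f-lysM-cre mice (Bcl2 adjusted p = 0.0105, Birc3 adjusted p = 0.0205; 212 of all genes in place of 867), and it changed no other call among the survival genes. Whether the replicate numbers pair the libraries was not tested. Of 15 pairs, 4 had a correlation of deviations above 0.1 (-0.037 to 0.472 over 15792 genes). The highest were 0.472 for replicate 1 and 0.340 for replicate 2, both between the groups headed LPS-. Leaving out the 3 libraries highest in stromal markers was a choice made after seeing the data. For the genotype without LPS it left 1 library in LPS- tlr4f/f-lysM-cre, with the log2 fold changes given above. For LPS+ tlr4f/f-lysM-cre against LPS- tlr4f/f it left out only LPS- tlr4f/f replicate 1. That is the fit described above, with 5 called beside 12.8% of 15010 genes. This comparison also gave 5 with no filter beyond 1 count, beside 7.74% of 25235 genes. At an adjusted p below 0.05 it gave 5 beside 20.9% of 14595 genes. The difference of the LPS effects gave 0 with voom (Bcl2 adjusted p = 0.0467).

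When 1 library was omitted, the number called ran from 0 to 0 for LPS in tlr4f/f, 0 to 2 for that in tlr4f/f-lysM-cre, 4 to 5 for the genotype without LPS, 4 to 5 with LPS, 2 to 5 for LPS+ tlr4f/f-lysM-cre against LPS- tlr4f/f and 0 to 1 for the difference of the LPS effects. Mcl1 was called for the genotype without LPS with DESeq2, voom, the fit of 12 libraries, an adjusted p below 0.05 and summed transcripts. Of 996 gene values under the alternatives, 925 kept direction and side of the threshold, 24 passed it newly, 28 no longer passed and 19 changed sign.

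None of the sign changes passed the threshold. For LPS in tlr4f/f they were Bcl2 (0.085 with voom, -0.34 to 0.21 with 1 library omitted), Bbc3 (0.026 with voom, -0.22 to 0.17), Bcl2l1 (-0.30 to 0.28) and Birc2 (-0.0071 to 0.26). For the genotype without LPS it was Bbc3 (0.026 with DESeq2, 0.026 with RLE scaling, 0.28 without the stromal libraries, -0.37 to 0.19). For LPS+ tlr4f/f-lysM-cre against LPS- tlr4f/f it was Bcl2l1 (-0.048 without LPS- tlr4f/f replicate 1, -0.048 to 0.53). For the difference of the LPS effects they were Bcl2l1 (-0.64 to 0.012) and Bcl2l11 (-0.11 to 0.44).

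Over all genes, calls for LPS in tlr4f/f were 0, against 467 with DESeq2, 50 with voom, 34 without the filter, 75 in the fit of 12 libraries, 92 at an adjusted p below 0.05 and 0 to 182 with 1 library omitted. For LPS in tlr4f/f-lysM-cre they were 867, against 2006 with DESeq2, 1985 at an adjusted p below 0.05 and 4 to 1180 with 1 omitted. Counts without the stromal libraries are left out here wherever 1 library is then left in LPS- tlr4f/f-lysM-cre. For the genotype without LPS the calls were 2500, against 3996 with DESeq2 and 4258 in the fit of 12 libraries. They were 4064 at an adjusted p below 0.05 and 1039 to 1683 with 1 omitted. For the genotype with LPS they were 3165, against 2053 in the fit of 12 libraries. For LPS+ tlr4f/f-lysM-cre against LPS- tlr4f/f they were 1952, against 2967 with DESeq2, 921 with the replicate block, 3047 at an adjusted p below 0.05 and 593 to 2287 with 1 omitted. For the difference of the LPS effects they were 157, against 657 with DESeq2 and 623 at an adjusted p below 0.05. They ran from 10 to 306 with 1 omitted. The cause of these changes was not tested.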
